A study of Rattus norvegicus with 8 samples.

Results

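miR-132 and miR-212 are 2 microRNAs that are cut from neighbouring hairpins on 1 stretch of the rat genome. They were picked by name from the table of reads per known rat miRNA, with any arm of the hairpin. This gave 4 of the 620 listed rows, namely rno-miR-132, rno-miR-212 and the opposite arms rno-miR-132* and rno-miR-212*. Small RNA was sequenced from kidneys of 8 male Big Blue transgenic rats on the Fisher 344 background, which entered the treatment at an age of 6 weeks. The 4 rats of the AA group were gavaged with aristolochic acid, a plant toxin and kidney carcinogen, as the sodium salt at 10.0 mg/kg for 12 weeks, with 5 doses each week. The 4 control rats were gavaged with 0.9% sodium chloride on that schedule, and the kidneys of both groups were taken 1 day after the final dose. Each library stands for 1 rat. All 8 rats carry the Big Blue transgene, which serves mutation assays.

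Both miRNAs are known as immediate targets of the transcription factor CREB, which is switched on by neuronal activity and by growth factors, and they were studied first in neurons. A miRNA guides the silencing complex to messenger RNAs through its seed, the bases from position 2 to position 8 at its 5′ end. miRNAs with 1 seed can bind the same target sites. Outside the brain, the pair is also known from inflammation, from vessel growth and from the enlarged heart muscle.

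The deposited names are older miRBase names, in which the plain name of these hairpins denotes the 3p arm and the asterisk the 5p arm. All 4 rows were matched by these names to mature sequences of RefSeq on the assembly GRCr8. The main arms are shown first, with the seed in capitals, because they share it.

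rno-miR-132 (miR-132-3p): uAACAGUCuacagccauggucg

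rno-miR-212 (miR-212-3p): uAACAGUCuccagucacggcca

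rno-miR-132* (miR-132-5p): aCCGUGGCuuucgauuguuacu

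rno-miR-212* (miR-212-5p): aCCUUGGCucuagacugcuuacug

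The main arms are both 22 bases long and have the first 9 bases in common. They differ at 5 positions, counted from 1 at the 5′ end with the base of miR-132-3p written first, namely A10C, C14U, U17C, U20C and G22A. Of the 724 mature rat sequences in the RefSeq table, 2 carry this seed, and they are these 2. The 5p arms do not share a seed, since the substitution G4U lies in it. On GRCr8, miR-212-3p lies at chr10:60521811-60521832 and miR-132-3p at chr10:60522091-60522112, both on the plus strand. Their starts are 280 bases apart, and the protein-coding gene that precedes them in the order of the annotation is Hic1. The hairpin of miR-132 is shown with both arms in capitals, the 5p arm from base 23 to base 44 and the 3p arm from base 59 to base 80, to show the 14 bases of loop between them.

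rno-mir-132 hairpin: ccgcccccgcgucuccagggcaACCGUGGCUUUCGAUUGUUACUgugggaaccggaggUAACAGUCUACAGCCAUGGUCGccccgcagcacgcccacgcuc

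The libraries held 13412373 to 15616670 reads on known miRNAs, so that the members are measured by few reads in a deep library. One field of the sample labels calls the tissue liver, whereas the study names the kidney. miR-122, the defining miRNA of liver cells, took at most 0.0634% of the reads, and the 10 miRNAs listed for kidney tubule and epithelium summed to between 125831 and 232718 CPM (read counts divided by the TMM-scaled library size, in units of 1000000 reads). Most of that sum was rno-miR-30a, with means of 125631 CPM in controls and 111448 CPM in AA rats. rno-miR-204 of the same list had means of 30.3 and 17.4 CPM. The tissue was not tested further. miR-122 stood apart in control 1, with 707 reads against 55 to 95 in the other controls, and in AA 2, with 9634 reads against 9 to 43 in the other AA libraries.

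The main arms of both miRNAs were higher in every AA rat than in any control rat. rno-miR-132 had 161, 106, 180 and 72 reads in controls 1 to 4 and 529, 567, 475 and 734 reads in AA 1 to 4. On the CPM scale, these are 12.1, 7.80, 11.2 and 5.87 in controls and 40.9, 30.8, 32.7 and 43.5 in AA rats. The groups did not overlap, and the lowest AA rat was 18.7 CPM above the highest control rat. The mean CPM rose from 9.23 ± 2.90 (SD, n = 4) to 37.0 ± 6.18 (SD, n = 4), which is 2.0 on the log2 scale with a standard error of 0.27 (quasi-likelihood test of edgeR, Benjamini-Hochberg adjusted p = 0.00070). At 72 reads, the lowest count, the 95% Poisson interval runs from 56.3 to 90.7 reads, and the highest control count of 180 lies outside it. Such an interval covers only the error of counting independent reads and leaves out the differences between rats. Where PCR makes several reads of 1 molecule, it is too narrow.

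rno-miR-212, the less abundant partner with the shared seed, had 16, 21, 36 and 20 reads in the control libraries and 90, 90, 72 and 125 reads in the AA libraries. Its levels were 1.20, 1.55, 2.23 and 1.63 CPM in controls and 6.96, 4.88, 4.95 and 7.40 CPM in AA rats. Here also the groups did not overlap, and AA 4 and AA 1 were the highest libraries, as for rno-miR-132. The mean CPM rose from 1.65 ± 0.429 (SD, n = 4) to 6.05 ± 1.32 (SD, n = 4), which is 1.86 on the log2 scale with a standard error of 0.28 (edgeR, adjusted p = 0.0014). The 16 reads of control 1 have a 95% Poisson interval of 9.15 to 26 reads, so that the levels in the control group are known with less precision than those in the AA group.

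**Figure D1:**
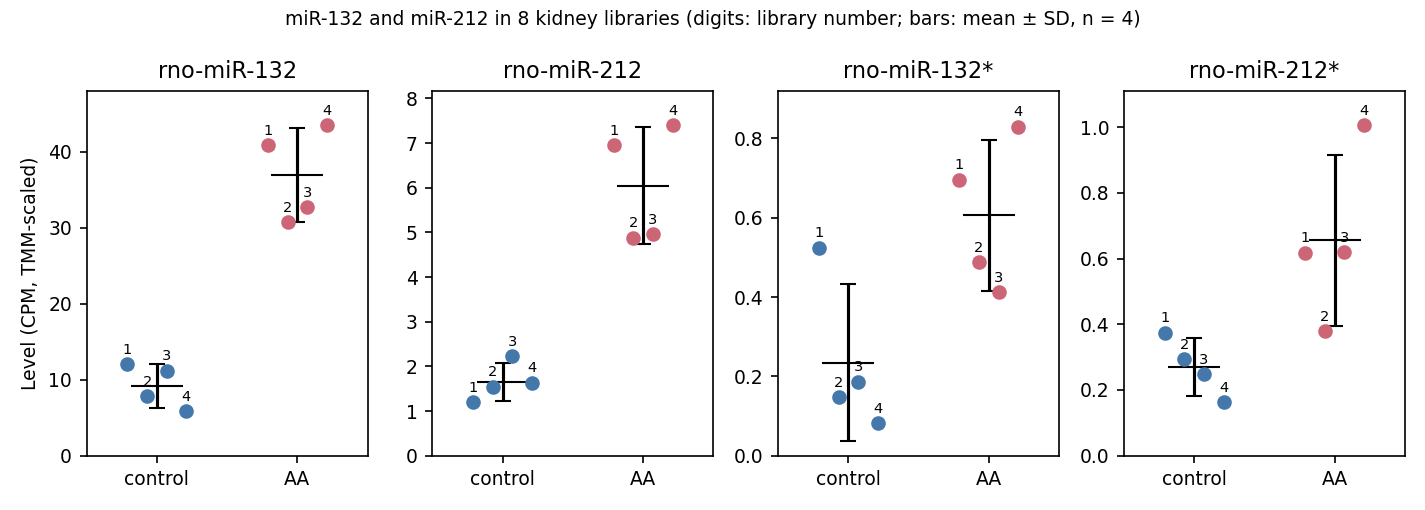
Levels of the 4 rows in CPM (vertical axes from 0, 1 panel for each row) in the 4 control and the 4 AA libraries, with the library number beside each point and the mean ± SD as bars. rno-miR-132 lies at 5.87 to 12.1 CPM in controls and at 30.8 to 43.5 CPM in AA rats, while rno-miR-132* overlaps between the groups.

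Of the 367 miRNAs that reached 10 reads in 4 or more libraries, 60 had an adjusted p-value under 0.05, which is 16.3% in either direction, and 10.4% were called higher and 5.99% lower in the AA group. The 2 main arms were both called higher, and the other 2 members did not reach the minimum of reads. Over all tested miRNAs, every AA library was above every control library in 14.4%. By the size of the log2 fold change, rno-miR-132 ranked 17 and rno-miR-212 ranked 21 of the 367, counted from the largest rise. The median of the 367 log2 fold changes was 0.06.

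**Figure D2:**
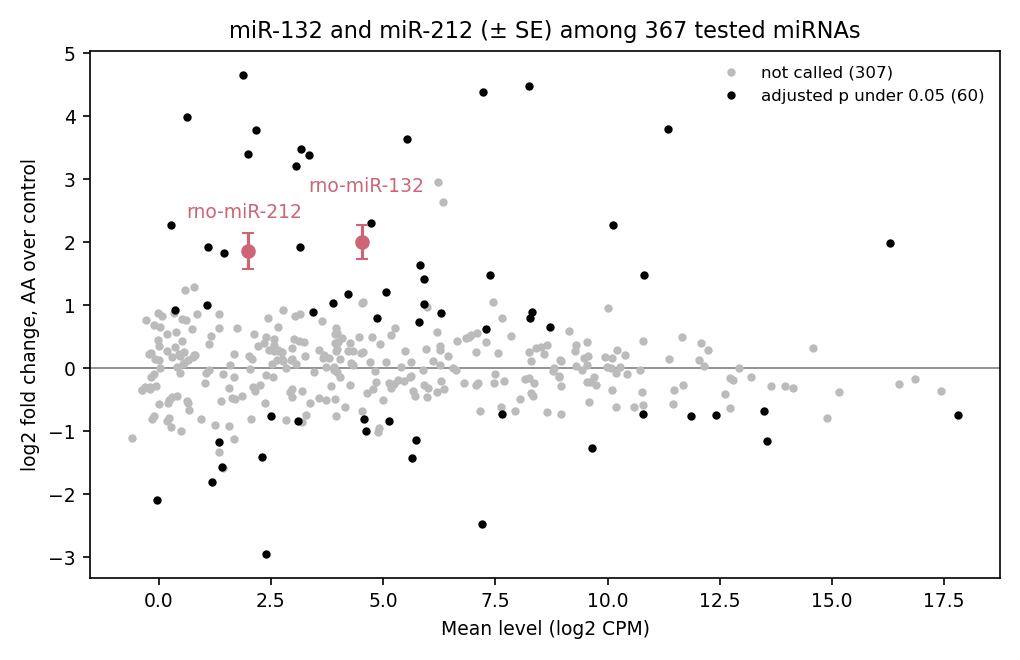
Mean level (log2 CPM, horizontal axis) and log2 fold change of AA over control (vertical axis) for the 367 tested miRNAs, where black points had an adjusted p-value under 0.05 and red points with bars are the members ± standard error. rno-miR-132 at 2.0 and rno-miR-212 at 1.86 lie among the higher black points.

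Both calls held in each of the 16 other fits. With other scalings, tests, filters and libraries left out, the log2 fold change of rno-miR-132 lay between 1.75 and 2.19 and that of rno-miR-212 between 1.63 and 2.05, with an adjusted p of at most 0.0048 and 0.019. The lowest value of rno-miR-212 came without the 2 libraries that stood apart in miR-122, and that of rno-miR-132 without the 2 libraries numbered 4. Without control 1 and AA 2, rno-miR-132 had a log2 fold change of 2.05.

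**Figure D3:**
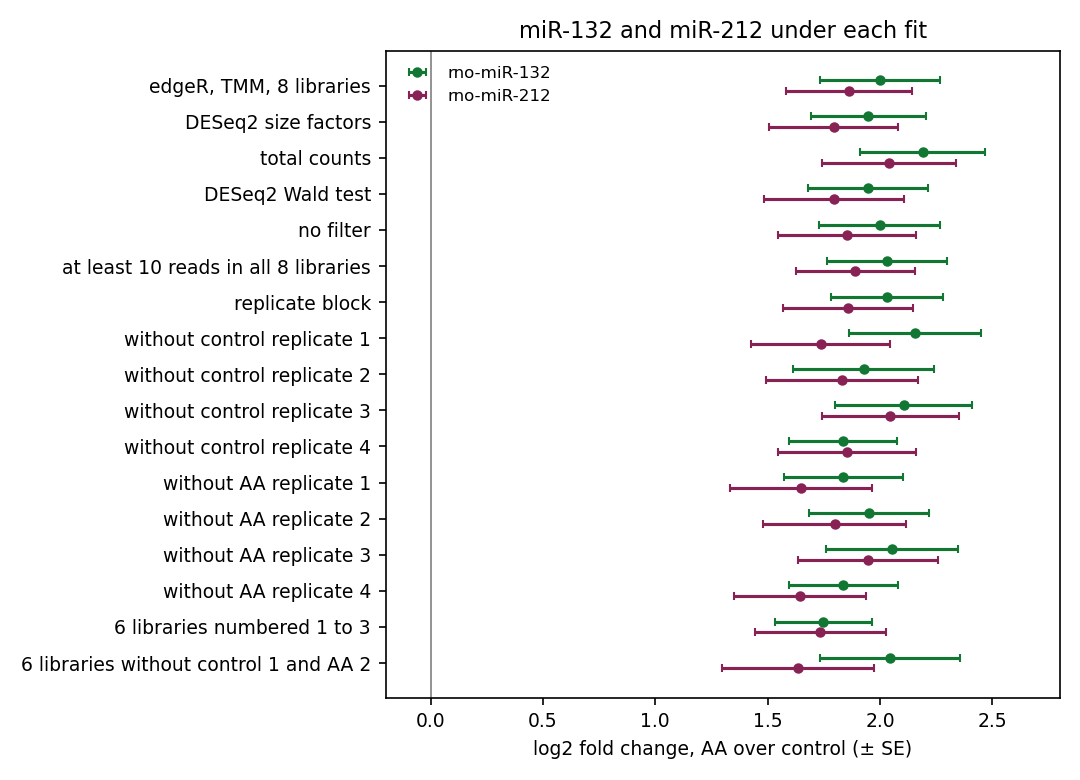
The log2 fold change of AA over control ± standard error (horizontal axis) for rno-miR-132 in green and rno-miR-212 in purple under each of the 17 fits (vertical axis). Every value lies between 1.63 and 2.19, to the right of the line at 0.

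The opposite arms were close to the limit of detection. rno-miR-132* had 7, 2, 3 and 1 reads in the control libraries and 9, 9, 6 and 14 in the AA libraries. The groups overlapped in CPM, since control 1 at 0.525 CPM was above AA 2 and AA 3 at 0.488 and 0.413 CPM. rno-miR-212* had 5, 4, 4 and 2 reads in the control libraries and 8, 7, 9 and 17 in the AA libraries. Its groups did not overlap, but the highest control value, 0.375 CPM, and the lowest AA value, 0.380 CPM, nearly touched.

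In a fit of all 620 rows without a minimum of reads, where 8.71% were called in either direction, the log2 fold change of rno-miR-132* was 1.33 (standard error 0.55, adjusted p = 0.16 from edgeR) and that of rno-miR-212* was 1.24 (standard error 0.47, adjusted p = 0.13). Neither passed the threshold. The unadjusted p-values from edgeR were 0.029 and 0.020, and 147 of the 620 rows had an unadjusted p under 0.05 in that fit. At this depth, a difference between the groups in these arms was neither shown nor excluded. Of the reads on both arms of the miR-132 hairpin, the 5p arm held 13 of 532 in the control group, or 2.44% (95% Wilson interval 1.43% to 4.14%), and 38 of 2343 in the AA group, or 1.62% (1.18% to 2.22%). For the miR-212 hairpin, it held 15 of 108 reads, or 13.9% (8.60% to 21.7%), in controls and 41 of 418, or 9.81% (7.31% to 13%), in AA rats. These intervals pool the reads of 4 rats and cover counting error only. Single control libraries ranged from 9.09% to 23.8% for the miR-212 hairpin and from 1.37% to 4.17% for the miR-132 hairpin. In every library, the 3p arm held most of the reads of both hairpins. With at most 1 library at 10 reads of either 5p arm, the change of the arm ratio was not tested.

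Whether the pair moved by the same factor was read from the ratio of their reads inside each library, which no scaling between libraries can change. For 1 read of rno-miR-212, the controls held 10.1, 5.05, 5.00 and 3.60 reads of rno-miR-132 and the AA libraries 5.88, 6.30, 6.60 and 5.87. All AA values lay inside the range of the controls. The log2 ratio of miR-212 to miR-132 reads (with 0.5 added to each count) was -2.43 ± 0.62 in controls and -2.61 ± 0.08 in AA rats (SD, n = 4 each). The difference of -0.18 was smaller than the SD of the control rats. An exact permutation test of the means (two-sided) gave p = 0.571, and inverting the test gave a 97.1% interval from -0.89 to 0.74. The interval assumes that the groups differ only by a shift, whereas their SDs of 0.62 and 0.08 were unlike. A p that misses the threshold does not show that the partners responded alike, and the interval spans differences of that size in both directions. The result turns on control 1, which had the fewest reads of rno-miR-212. Without control 1 the difference was -0.47 and the exact permutation p was 0.0286, the smallest that 3 against 4 libraries can give. Without control 4, the difference was 0.02.

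**Figure D4:**
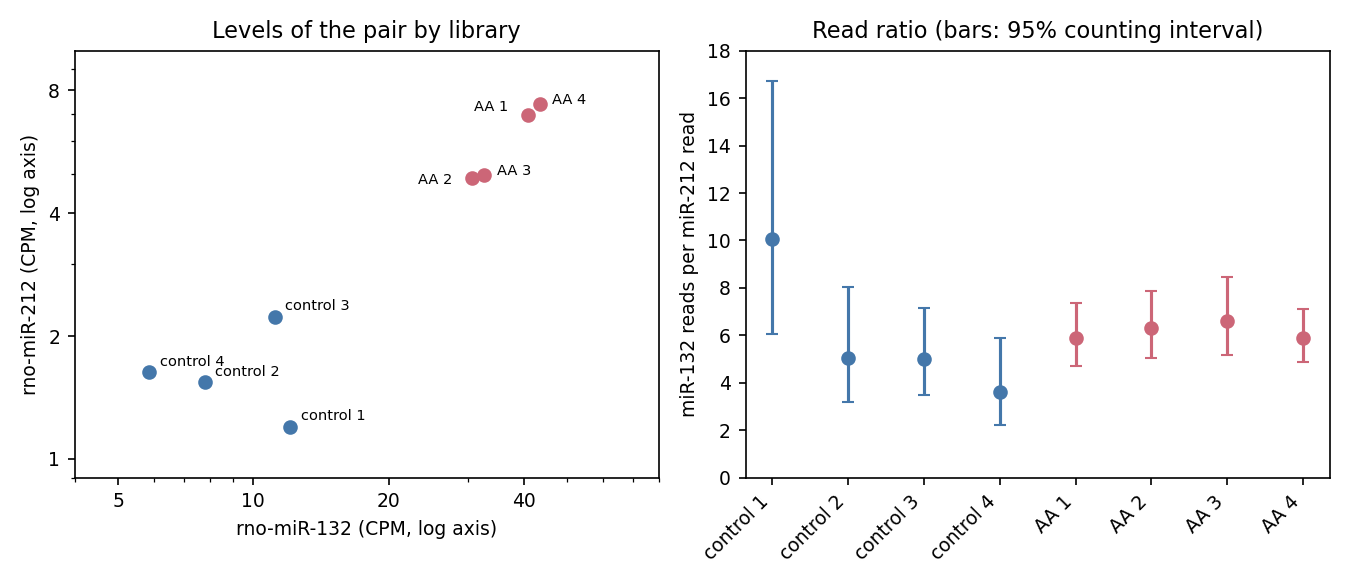
Left, level of rno-miR-212 against rno-miR-132 in CPM on log axes for each library. Right, reads of miR-132 for 1 read of miR-212 in each library with 95% Wilson counting intervals, which run from 6.05 to 16.7 in control 1 and from 4.86 to 7.10 in AA 4, and in which the 4 AA libraries lie close together.

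Together, the 4 rows took 0.00124%, 0.000906%, 0.00144% and 0.000692% of the reads in controls 1 to 4 and 0.00474%, 0.00443%, 0.00407% and 0.00570% in AA 1 to 4. The groups did not overlap. The mean share went from 0.00107% ± 0.000333 to 0.00473% ± 0.000700 (SD, n = 4 each), a difference of 0.00367 percentage points (exact permutation test, two-sided, p = 0.0286, the smallest that 4 against 4 can give, 97.1% interval 0.00263 to 0.00501). By mean level in the control group, rno-miR-132 ranked 217 and rno-miR-212 ranked 300 of the 367 tested miRNAs, and by mean level in the AA group they ranked 155 and 255. The rows next to rno-miR-132 in the control order were rno-miR-15b* at 9.61 ± 1.73 CPM and rno-miR-503* at 9.14 ± 2.04 CPM, and those next to rno-miR-212 were rno-miR-218-1* at 1.66 ± 0.351 CPM and rno-miR-224 at 1.59 ± 0.763 CPM (SD, n = 4 each). Their levels in that group are close to those of the pair because they were chosen by rank.

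After the group means were taken off, Pearson's r between the log2 levels of rno-miR-132 and rno-miR-212 over the 8 libraries was 0.27. This value pools both groups, and whether they differ in it was not tested. The AA rats had the same order for both partners, rising from AA 2 over AA 3 and AA 1 to AA 4. Their levels were 30.8, 32.7, 40.9 and 43.5 CPM for rno-miR-132 and 4.88, 4.95, 6.96 and 7.40 CPM for rno-miR-212. For rno-miR-212, AA 2 and AA 3 were close, with 90 and 72 reads, so that their order is uncertain. Among controls, control 1 was highest for rno-miR-132 at 12.1 CPM and lowest for rno-miR-212 at 1.20 CPM, from 16 reads. The part of counting error in the low r was not tested. The most similar patterns to rno-miR-132 were those of rno-miR-19a (r = 0.95), rno-miR-92a-1* (r = 0.93) and rno-miR-872 (r = 0.92), and none of these was called between the groups. For rno-miR-212 they were rno-miR-501 (r = 0.92), rno-miR-221* (r = 0.73) and rno-miR-219-5p (r = 0.65), also not called. These values are descriptions from 8 libraries that share the scaling, and the highest of 366 values is large by selection.

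Of 6 miRNAs linked to neuronal activity and CREB, all tested, 2 were called higher and 0 lower by edgeR. Over all tested miRNAs, 10.4% were called higher and 5.99% lower. The 2 of the list were rno-miR-132 and rno-miR-212 themselves, and DESeq2 also called 2 of the list. The other 4 had log2 fold changes of -0.68 for rno-miR-134, -0.31 for rno-miR-184, 0.14 for rno-miR-188 and 0.30 for rno-miR-219-5p. Of 11 neuron-enriched miRNAs, 9 were tested and 0 were called by edgeR or by DESeq2 in either direction. Among all tested miRNAs, edgeR called 16.3%. The median log2 fold change of this list was 0.25, against 0.06 over all tested miRNAs. An unadjusted p under 0.05 in edgeR was reached by 2 of the 9, against 30.0% of all tested miRNAs, and these 2 went in opposite directions, rno-miR-9* at 0.64 and rno-miR-134 at -0.68. rno-miR-124, a defining miRNA of neurons, had 0 to 3 reads in the control libraries and 7 to 32 in the AA libraries and was not among the tested. rno-miR-137, also in the list and not tested, had 4 to 10 reads in the control libraries and 4 to 19 in the AA libraries. A far more distant miRNA of the chromosome is rno-miR-22, whose 3p arm starts 283296 bases from the start of miR-132-3p. rno-miR-22 was at 1234 ± 16.9 CPM in controls and 1246 ± 125 CPM in AA rats (SD, n = 4 in either group), at 0.01 on the log2 scale (standard error 0.13, edgeR adjusted p = 0.94), and rno-miR-22* was at 0.25 (standard error 0.17, adjusted p = 0.32).

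Of 5 miRNAs known to be induced beside miR-132 in inflammation, 4 were in the table and tested. Of these, 2 were called higher, against 10.4% of all tested miRNAs. rno-miR-21, a miRNA of injury and fibrosis, rose by 1.99 on the log2 scale (standard error 0.29, edgeR adjusted p = 0.0012) and rno-miR-146b, a brake on inflammatory signalling, by 2.27 (standard error 0.35, adjusted p = 0.0014). rno-miR-146a at -0.09 and rno-miR-147 at 1.28 were not called (adjusted p = 0.71 and 0.11). The median of the list was 1.64, against 0.06 over all tested miRNAs, and miR-155 was not analysed here.

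Some markers of other cells moved between the groups as well. Of 4 leukocyte miRNAs, 2 were called higher (against 10.4% of all tested), rno-miR-142-3p at a log2 fold change of 1.47 and rno-miR-223 at 1.02. rno-miR-150 at 0.58 and rno-miR-142-5p at 0.30 were not called (edgeR, adjusted p = 0.062 and 0.56). DESeq2 called 3 of the 4, against 76 of all 367 tested miRNAs in either direction. An unadjusted p under 0.05 in edgeR was reached by 3 of the 4, against 30.0% of all tested. The list, most of it rno-miR-142-3p, summed to 914 to 1264 CPM in controls and 2057 to 4121 CPM in AA rats. Each of the 4 had at least 494 reads in every library. Of 5 stromal and smooth muscle miRNAs 1 was called higher (against 10.4% of all tested), rno-miR-199a-3p at 0.65, and the median of the list was 0.50. Its sums of 177510 to 237837 CPM in controls and 143522 to 184357 CPM in AA rats are almost wholly rno-miR-143, which was at -0.36 and not called, while the other 3 lay between 0.27 and 0.80 and were not called. Of the 10 tubule and epithelial miRNAs 2 were called lower (against 5.99% of all tested). They were rno-miR-204 (edgeR, adjusted p = 0.034) and rno-miR-194, which only just passed the threshold (adjusted p = 0.0499). The list, most of it rno-miR-30a by CPM, had a median of -0.28 and sums of 164937 to 232718 CPM in controls and 125831 to 180124 CPM in AA rats. The 2 endothelial miRNAs (8118 to 10934 CPM and 6178 to 9455 CPM), the 2 erythroid miRNAs in the table (499 to 798 CPM and 158 to 564 CPM) and 5 neuron markers, 3 of them tested (299 to 399 CPM and 328 to 605 CPM), had 0 calls by edgeR or by DESeq2 and 0 unadjusted p-values under 0.05 in edgeR. Among all tested miRNAs, edgeR called 16.3%, and 30.0% had an unadjusted p under 0.05. miR-122 was not called either (edgeR, adjusted p = 0.30). The part of these cells in the rise of the pair was not tested. In pieces of whole kidney, a change in the number of cells that hold a miRNA and a change in its level per cell cannot be told apart.

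**Figure D5:**
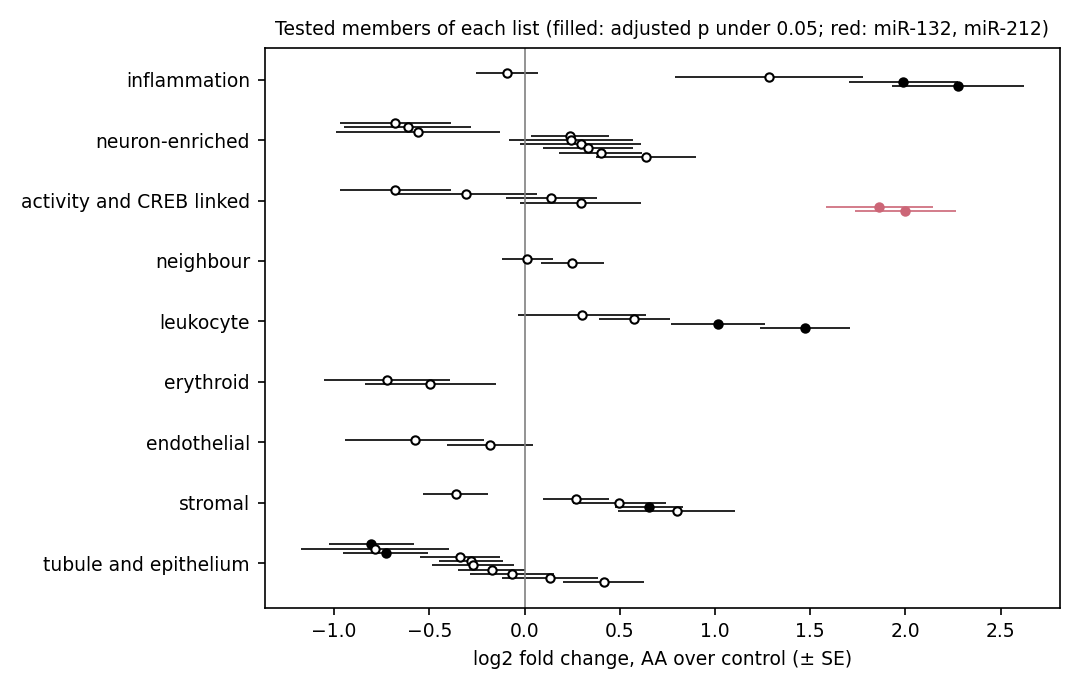
The log2 fold change of AA over control ± standard error (horizontal axis) for each tested member of 9 lists (vertical axis), with filled points for an adjusted p-value under 0.05 and red points for rno-miR-132 and rno-miR-212. In the list linked to activity and CREB the pair lies at 1.86 and 2.0 and the other 4 members lie between -0.68 and 0.30.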

How the data were processed

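The authors sequenced small RNA on an Illumina Genome Analyzer II and mapped the reads to known rat miRNAs of miRBase with miRanalyzer and Bowtie. The authors deposited raw read counts per miRNA and library, without normalization. The number of mismatches allowed there is not given in the sources used here, so that reads shared between miR-132 and miR-212 were not assessed. Samples were grouped by their titles, and each column carries the title of 1 sample. AA and control libraries were compared by the quasi-likelihood test (glmQLFit, glmQLFTest) of edgeR 4.0.16 under R 4.3.3, with TMM normalization and Benjamini-Hochberg adjustment over the 367 miRNAs that reached 10 reads in 4 or more libraries (threshold 0.05). The standard error is the log2 fold change divided by the square root of F. The read ratio (pseudocount 0.5) and the read share were compared with exact permutation tests, two-sided. The arm ratios were not tested, so that 1 ratio was tested and needed no adjustment.

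The miRNAs named are the 4 member rows, members of the fixed lists, the 3 miRNAs whose deviations from the group means of log2 CPM (prior count 2) correlate best with each main arm, and the neighbours in control level. rno-miR-124 was singled out after its values were seen. The members and lists were chosen with earlier results of these data known. Alternatives were the Wald test of DESeq2 1.42.0, its size factors in place of TMM, total counts, all rows, 10 reads in all 8 libraries, a replicate block, each library left out (with the same 367 miRNAs), a pseudocount of 1 and other denominators of the share. 2 settings with 6 libraries were added after the data were seen. Sequences were read from RefSeq (GRCr8). No value lay far enough from its group of 4 to be listed separately, over 12 groups examined with Dixon's criterion.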

Additional observations from a re-analysis of the deposited data

How the results depend on the processing

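The calls of rno-miR-132 and rno-miR-212 kept their direction and passed the threshold in all 16 alternative fits. The number of miRNAs called was 60 (38 higher, 22 lower) and lay between 36 and 54 with 1 library left out, the lowest without control 2 and then 38 without control 1. Without control 1 and AA 2, a setting chosen after seeing the data, it was 31. Total counts gave 54 higher and 14 lower and moved the median log2 fold change from 0.06 to 0.27, under which the pair was at 2.19 and 2.04. The difference in the log2 ratio of miR-212 to miR-132 reads went from -0.47 without control 1 to 0.0202 without control 4, where its sign changed. The difference in the share of reads was 0.00367 percentage points, 0.00644 when the 3 most abundant miRNAs were left out of the denominator (exact p = 0.0286), 0.00367 with the libraries paired by number, 0.00322 with the libraries numbered 1 to 3 and 0.00382 without control 1 and AA 2. These designs cannot go below an exact p of 0.125 for 4 pairs and 0.1 for 3 against 3. Both groups use the numbers 1 to 4 in their titles. Deviations of same-numbered libraries correlated with r of 0.05, 0.20, 0.14 and 0.35 over 367 miRNAs. The labels do not say that a number is shared, and 1 of the 4 r is under the 0.1 asked of every pair, so the fit without the block was kept. As a hint from the data that numbers may be shared, 6 of 8 libraries correlated best with their own number. With the number as a replicate block, 78 miRNAs were called, rno-miR-132 was at 2.03 (edgeR, adjusted p = 0.0013) and rno-miR-212 at 1.86 (adjusted p = 0.0040). Depth limits the 5p arms, with 1 to 17 reads per library, and rno-miR-212 in the control group, with 16 to 36.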
